A study of Mus musculus with 145 samples.

Results

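The genes described here are 34 listed genes of fat cells and fat storage, matched by symbol to the Ensembl identifiers of the study's gene count table, in which all 34 of 34 were found among 55416 identifiers. They were followed in the dorsal skin of mice by sequencing of polyadenylated RNA after 1 exposure to ultraviolet light (96.4% UVA and 3.6% UVB) from a sunbed canopy with 8 lamps, each of 100 W. The irradiated animals received 5, 10, 20 or 40 mJ/cm2, the control animals were handled without irradiation (sham), and skin was taken at 0, 6, 24, 48, 72 or 96 h, which gives 30 groups of dose and time. Each of the 145 libraries is a separate, individually numbered animal: 25 groups hold 5 animals, and 20 mJ/cm2 at 48 h and the 4 irradiated groups at 96 h hold 4. All animals had skin of the same labelled site, and their strain, sex and age are not in the labels used.

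White adipocytes store triglyceride in a lipid droplet and release it again as fatty acids and glycerol, and they secrete hormones that report on the store. Mouse skin holds a layer of such cells beneath the dermis, and its thickness is known to follow the hair growth cycle. Lipids are also made in the skin by the sebaceous glands and by the epidermis, so genes of fatty acid synthesis are not specific to adipocytes, and a thin sheet of skeletal muscle lies below the fat. Because whole skin was measured, fewer cells of a type and less RNA per cell cannot be told apart in any result below.

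Total counts per library ran from 180004 to 64588924 with a median of 11079517. Far shallower than the rest were 10 mJ/cm2 replicate 5 at 6 h and 20 mJ/cm2 replicate 5 at 0 h, with 180004 and 204483 counts, and the next lowest held 2685040. Levels are CPM (counts scaled to equal library sizes, with TMM factors), and differences are log2 fold changes with their standard errors (SE), irradiated over sham skin or a later time over 0 h. Of the 34 genes, 33 passed the filter on low counts and were tested among 18677 genes with edgeR's quasi-likelihood test, and a gene was called at a Benjamini-Hochberg adjusted p under 0.05. Markers of the labelled tissue were present: over the 6 sham groups the mean log2 CPM of 12 keratinocyte genes was 7.94 to 9.33, that of 10 dermal fibroblast genes was 10.82 to 11.07, and that of 21 skeletal muscle genes was 9.64 to 11.05. A list of 20 further adipocyte markers outside the 34 genes stood at 3.10 to 3.82, lower per gene than the muscle and keratinocyte lists on this scale, which is not corrected for gene length.

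Levels per kilobase were taken over all annotated exons of a gene merged, which can be longer than its main transcript. On that scale the most abundant of the genes in sham skin was Car3, carbonic anhydrase 3, at 1081 CPM per kilobase averaged over 30 sham animals. Next stood Cfd, which encodes the secreted protease adipsin (complement factor D), at 201, the fatty acid carrier Fabp4 at 133, the fatty acid transporter Cd36 at 120 and the hormone gene Adipoq at 78.2 CPM per kilobase. At the lower end were Lep at 4.95, the beta-3 adrenergic receptor gene Adrb3 at 3.35 and the glycerol channel gene Aqp7 at 2.38 CPM per kilobase. The order depends on the length used. Before division Fabp4, with 4489 merged bases, was at 596 CPM and Cfd, with 922, at 185 CPM. Ucp1, the uncoupling protein that defines brown and beige fat, was at 0 counts in 110 of the 145 libraries and reached at most 30 counts, or 0.736 CPM, in 10 mJ/cm2 replicate 2 at 0 h, and it was the 1 gene that did not pass the filter. That same animal, whose library was also extreme in base composition as described below, held the highest level of 10 of the other genes. Among them were Adipoq, Fabp4, Retn, Cd36 and Lpl.

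Promoters of 3 of these genes are shown because the results below return to these hormone genes, Adipoq and Lep, and to Aqp7, the gene whose 40 mJ/cm2 animals lay wholly below sham at 24 h and wholly above at 96 h. Each run is the 250 bases before the start of the gene, read 5′ to 3′ on the gene's strand, from RefSeq on build GRCm38.p6, and capitals mark a match to a searched motif. The Adipoq window is chr16:23146286-23146535 on the plus strand, the Lep window chr6:29059971-29060220 on the plus strand, and the Aqp7 window chr4:41048137-41048386 on the minus strand.
Adipoq: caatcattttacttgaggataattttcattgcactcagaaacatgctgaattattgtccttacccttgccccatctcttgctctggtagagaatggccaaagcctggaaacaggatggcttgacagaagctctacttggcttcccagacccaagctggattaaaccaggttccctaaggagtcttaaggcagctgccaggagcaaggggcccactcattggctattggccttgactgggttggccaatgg
Lep: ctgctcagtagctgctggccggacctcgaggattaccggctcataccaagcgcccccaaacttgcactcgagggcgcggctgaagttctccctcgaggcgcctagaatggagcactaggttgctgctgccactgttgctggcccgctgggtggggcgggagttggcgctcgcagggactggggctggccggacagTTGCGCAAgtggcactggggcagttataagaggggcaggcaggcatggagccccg
Aqp7: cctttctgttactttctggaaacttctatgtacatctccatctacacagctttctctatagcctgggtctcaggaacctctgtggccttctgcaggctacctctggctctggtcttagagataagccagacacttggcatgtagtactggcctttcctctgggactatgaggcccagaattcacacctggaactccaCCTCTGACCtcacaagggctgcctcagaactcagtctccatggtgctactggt
The motifs searched, on both strands of each RefSeq window (250 bases before to 50 after the start), were GGTCANAGG, the core of the repeat read by PPAR with RXR, TTGCGCAA for C/EBP factors, CACGTG, the E box, and TCACCCCAC, a sterol element. RefSeq windows were given for 25 of the 34 genes, 33 windows in all. Among them GGTCANAGG matched only in Aqp7, in reverse, 53 bases before its start, against 1.72% of the 32851 mouse promoter windows given. TTGCGCAA matched only in Lep, 55 bases before the start, against 0.183% of windows. CACGTG matched in Lipe and Mlxipl (7.15% of windows) and TCACCCCAC in Acsl1 (0.551%), and none of the 4 in the Adipoq window.

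The first question was how each dose changed these genes against sham skin of the same time. After 40 mJ/cm2, 1 of the 33 genes was called at any time: Car3 fell at 48 h by 1.09 ± 0.22 on the log2 scale. Every other gene missed the threshold in all 24 comparisons of a dose with sham. With the muscle level in the 48 h fit, Car3 was not called. In that fit 9 of the 33 genes were called, all higher, against 19.0% of all genes. Muscle level was itself lower after 40 mJ/cm2 than in sham skin at 48 h, so that fit separates dose from muscle level poorly. The median log2 fold change of the 33 genes at 40 mJ/cm2 was -0.13, -0.31, -0.47, -0.23, 0.17 and 0.76 at 0, 6, 24, 48, 72 and 96 h, while that of all genes tested stayed between -0.02 and 0.05. The 2 extremes were 24 h, with 28 of 33 values below 0, and 96 h, with 33 of 33 above 0.

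Against these counts, edgeR called 0%, 4.89%, 2.92%, 7.73%, 1.26% and 0.118% of all genes tested at 40 mJ/cm2 at 0, 6, 24, 48, 72 and 96 h. At 0, 6, 24, 72 and 96 h it called 0 of the 33, with 1, 2, 7, 1 and 18 at an unadjusted p under 0.05, and DESeq2 called 0, 0, 2, 0 and 0. Those unadjusted counts are 3.03%, 6.06%, 21.2%, 3.03% and 54.5% of the 33, against 4.45%, 17.4%, 16.4%, 11.0% and 4.74% of all genes. At 24 and 48 h DESeq2 called 6.89% and 10.2% of all genes. At 20 mJ/cm2 edgeR called 0.434%, 0.0750% and 0.482% of all genes at 6, 24 and 48 h and 0 of the 33, with 6, 1 and 4 below an unadjusted p of 0.05, and DESeq2 called 0 as well. Those are 18.2%, 3.03% and 12.1% of the 33, against 9% of all genes at 6 h, 6.61% at 24 h and 21.3% at 48 h. At 5 and 10 mJ/cm2, and at 20 mJ/cm2 at the other times, edgeR called no gene of any kind. Over the 4 irradiated doses, a slope on log2 dose was called for 0%, 1.42%, 0.953%, 3.84%, 0.600% and 0.0428% of all genes at the 6 times and for 0 of the 33, with 3, 0, 0, 2, 0 and 0 below an unadjusted p of 0.05, while DESeq2 called 0, 0, 0, 1, 0 and 0. Of all genes, 1.94%, 11.9%, 10.4%, 16.4%, 6.92% and 4.07% had such a p for the slope.

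The plot of log2 fold changes by dose and time shows that direction did not follow dose at 96 h. There the median of the 33 genes was 0.49 after 5 mJ/cm2, -0.36 after 10 mJ/cm2, -0.45 after 20 mJ/cm2 and 0.76 after 40 mJ/cm2, all set against the same 5 sham animals. Adipoq showed the same alternation: it was at 25.3, 317, 234 and 195 CPM after 5 mJ/cm2, 17.7, 19.8, 29.9 and 13.5 CPM after 10 mJ/cm2, 49.4, 17.7, 36.8 and 24.6 CPM after 20 mJ/cm2 and 190, 204, 102 and 288 CPM after 40 mJ/cm2. At 5 mJ/cm2, 3 of 4 animals were high and 1 was low, whereas all 4 animals were low at both middle doses and all 4 high at 40 mJ/cm2.

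Among the secreted products, Adipoq encodes adiponectin, an insulin-sensitizing hormone made almost only by adipocytes. Adipoq was at 204, 164, 163, 159 and 142 CPM in the 40 mJ/cm2 animals at 0 h, against 179, 198, 176, 155 and 249 CPM in the sham animals. Adipoq was at 44.4, 71.5, 166, 33.3 and 33.0 CPM in the 40 mJ/cm2 animals at 6 h, against 157, 101, 48.1, 57.7 and 234 CPM in the sham animals. Adipoq was at 31.0, 43.1, 4.19, 16.1 and 51.9 CPM in the 40 mJ/cm2 animals at 24 h, against 31.6, 48.1, 157, 184 and 17.8 CPM in the sham animals. The groups overlapped at all 3 times, and 40 mJ/cm2 replicate 3 at 24 h had the lowest Adipoq level of all 145 libraries. Adipoq was at 107, 35.6, 46.4, 142 and 25.7 CPM in the 40 mJ/cm2 animals at 48 h, against 150, 59.7, 20.7, 26.9 and 185 CPM in the sham animals. Adipoq was at 130, 4.55, 140, 95.2 and 294 CPM in the 40 mJ/cm2 animals at 72 h, against 179, 43.9, 191, 41.6 and 54.0 CPM in the sham animals. Adipoq was at 190, 204, 102 and 288 CPM in the 40 mJ/cm2 animals at 96 h, against 32.9, 162, 26.2, 62.1 and 9.84 CPM in the sham animals. At 72 h replicate 2 stood far below the other 4 irradiated animals, and at 96 h every 40 mJ/cm2 animal exceeded 4 of the 5 sham animals. The log2 fold change was -1.56 ± 0.81 at 24 h and 1.88 ± 0.67 at 96 h (edgeR adjusted p = 0.352 and 0.696).

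Leptin, encoded by Lep, signals the size of the fat store. Lep was at 23.3, 23.9, 21.2, 21.1 and 16.6 CPM in the 40 mJ/cm2 animals at 0 h, against 11.2, 27.0, 39.6, 15.7 and 51.2 CPM in the sham animals. Lep was at 7.15, 15.6, 10.8, 5.81 and 7.29 CPM in the 40 mJ/cm2 animals at 6 h, against 35.0, 33.1, 3.79, 8.80 and 43.1 CPM in the sham animals. Lep was at 3.91, 6.85, 1.047, 2.57 and 9.06 CPM in the 40 mJ/cm2 animals at 24 h, against 5.04, 9.28, 18.4, 36.2 and 2.37 CPM in the sham animals. All 5 irradiated values lay inside the sham range at 0 h and at 6 h, where 2 sham animals were as low as the irradiated ones. Lep was at 22.1, 6.11, 9.44, 27.0 and 4.74 CPM in the 40 mJ/cm2 animals at 48 h, against 7.41, 12.0, 2.196, 3.69 and 32.3 CPM in the sham animals. Lep was at 27.9, 0.536, 11.9, 26.7 and 33.0 CPM in the 40 mJ/cm2 animals at 72 h, against 21.1, 9.02, 19.5, 8.48 and 10.2 CPM in the sham animals. Lep was at 26.7, 20.9, 10.7 and 35.1 CPM in the 40 mJ/cm2 animals at 96 h, against 3.82, 10.9, 3.36, 12.4 and 2.32 CPM in the sham animals. At 96 h, 3 of the 4 irradiated animals were above every sham animal, with a log2 fold change of 1.80 ± 0.60 (edgeR adjusted p = 0.616).

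Cfd had the widest spread between animals of one group of all 33 genes, with an SD of 1.40 in log2 CPM. Cfd was at 446, 255, 143, 72.5 and 420 CPM in the 40 mJ/cm2 animals at 0 h, against 401, 175, 25.0, 181 and 439 CPM in the sham animals. Cfd was at 213, 107, 724, 24.1 and 76.2 CPM in the 40 mJ/cm2 animals at 6 h, against 582, 176, 153, 40.5 and 360 CPM in the sham animals. Cfd was at 155, 49.5, 3.84, 5.96 and 175 CPM in the 40 mJ/cm2 animals at 24 h, against 82.8, 48.7, 203, 137 and 49.0 CPM in the sham animals. At 24 h, 2 irradiated animals were below 6 CPM, under the lowest sham animal, and the other 3 were inside the sham range. Cfd was at 368, 79.0, 139, 411 and 86.2 CPM in the 40 mJ/cm2 animals at 48 h, against 510, 116, 58.7, 68.8 and 420 CPM in the sham animals. Cfd was at 323, 8.84, 74.2, 444 and 1195 CPM in the 40 mJ/cm2 animals at 72 h, against 390, 62.9, 67.6, 131 and 182 CPM in the sham animals. Cfd was at 338, 444, 147.7 and 553 CPM in the 40 mJ/cm2 animals at 96 h, against 90.0, 203, 57.1, 113 and 30.0 CPM in the sham animals. The 72 h group held both a value of 8.84 CPM and the highest Cfd value of the study, and at 96 h, 3 of 4 irradiated animals were above all sham animals (1.99 ± 0.69, edgeR adjusted p = 0.639). Retn, the gene of resistin, a hormone of adipocytes in mice, had log2 fold changes of -0.87 ± 0.83 at 24 h and 1.62 ± 0.68 at 96 h (adjusted p = 0.705 and 0.897).

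**Figure D1:**
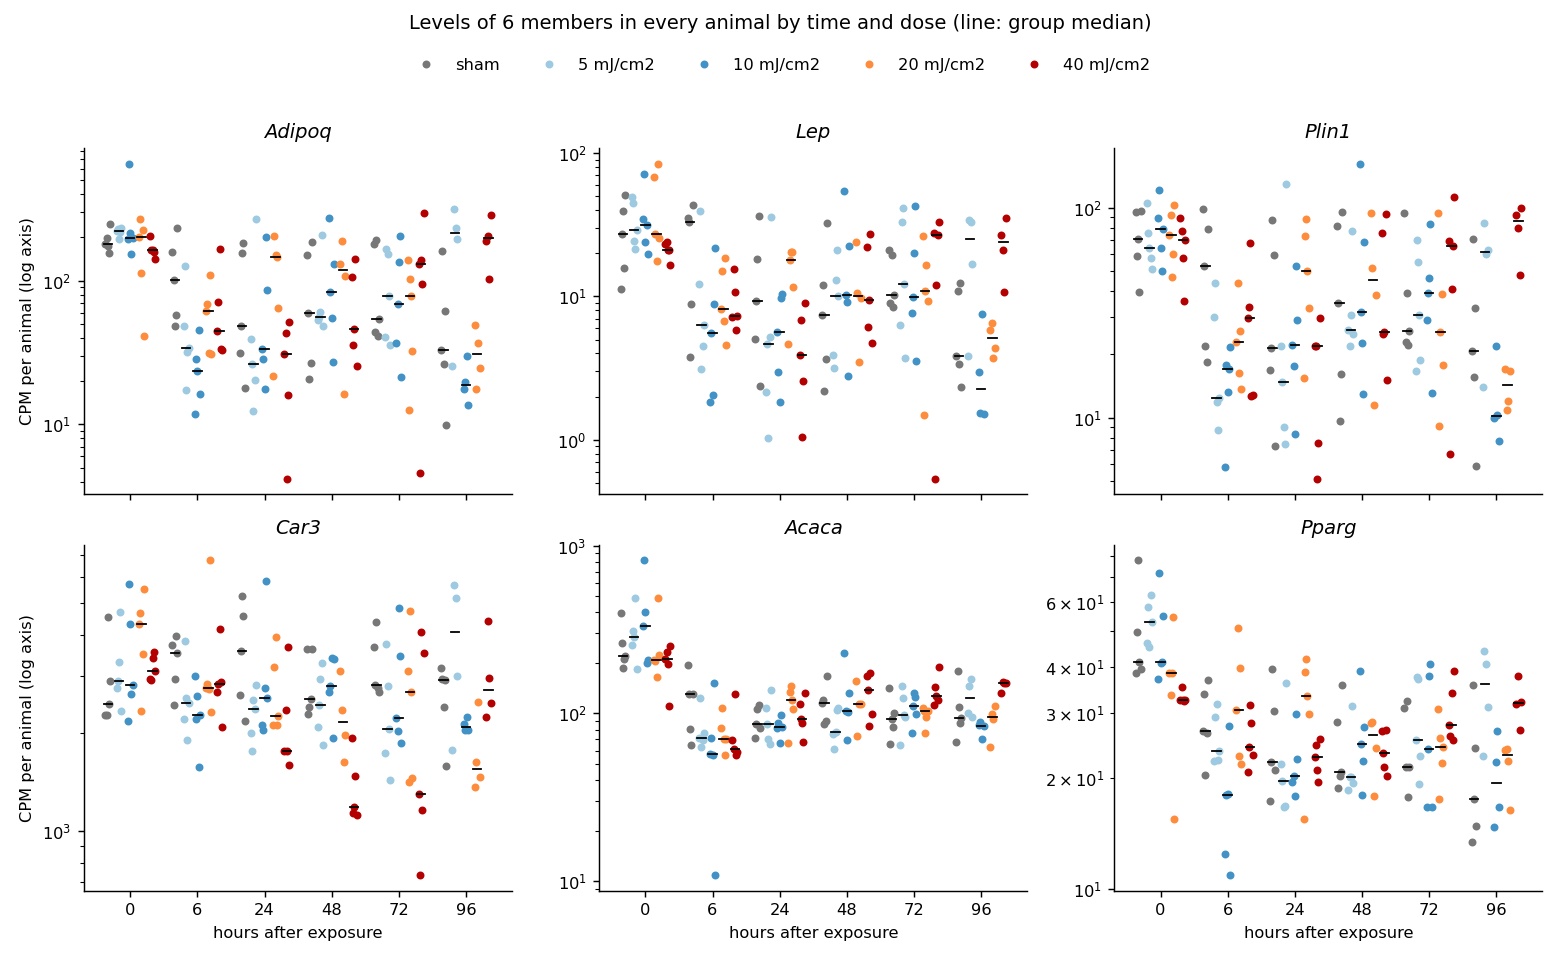
Level of 6 of the genes in every animal (points, CPM on a log axis) by hours after exposure, with sham and the 4 doses side by side at each time and a line at the group median. In sham skin every point of Acaca after 0 h but 1, at 194 CPM, lies below the 0 h points, and the 40 mJ/cm2 points of Car3 at 48 h, 1126 to 1937 CPM, lie below the sham points of 48 h.

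The lipid droplet genes come next. Plin1 encodes perilipin 1, the coat protein of the adipocyte droplet. Plin1 was at 88.8, 77.4, 57.4, 36.0 and 70.4 CPM in the 40 mJ/cm2 animals at 0 h, against 95.2, 59.0, 70.7, 39.7 and 96.5 CPM in the sham animals. Plin1 was at 29.9, 33.8, 67.5, 12.6 and 12.8 CPM in the 40 mJ/cm2 animals at 6 h, against 98.1, 52.8, 22.0, 18.4 and 79.2 CPM in the sham animals. Plin1 was at 21.8, 22.0, 5.12, 7.59 and 29.7 CPM in the 40 mJ/cm2 animals at 24 h, against 16.9, 21.5, 86.8, 59.2 and 7.31 CPM in the sham animals. At 24 h the sham animals spanned 7.31 to 86.8 CPM, and 1 irradiated animal lay below it. Plin1 was at 75.7, 25.1, 25.4, 92.9 and 15.0 CPM in the 40 mJ/cm2 animals at 48 h, against 82.0, 35.3, 9.63, 16.1 and 95.0 CPM in the sham animals. Plin1 was at 69.2, 6.70, 40.9, 65.9 and 112 CPM in the 40 mJ/cm2 animals at 72 h, against 94.5, 22.8, 39.0, 22.1 and 25.7 CPM in the sham animals. Plin1 was at 92.5, 79.9, 47.8 and 99.3 CPM in the 40 mJ/cm2 animals at 96 h, against 20.6, 70.7, 15.6, 33.1 and 5.86 CPM in the sham animals. At 96 h, 3 of 4 irradiated animals were above all sham animals (1.62 ± 0.54, edgeR adjusted p = 0.585).

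Cidec encodes a protein that drives the fusion of droplets into a single large one. Cidec was at 122, 74.6, 57.6, 35.5 and 93.1 CPM in the 40 mJ/cm2 animals at 0 h, against 97.1, 79.4, 40.2, 59.2 and 119 CPM in the sham animals. Cidec was at 54.6, 52.0, 152, 18.7 and 36.5 CPM in the 40 mJ/cm2 animals at 6 h, against 173, 80.3, 44.7, 23.0 and 170 CPM in the sham animals. Cidec was at 27.1, 24.9, 3.49, 6.31 and 40.9 CPM in the 40 mJ/cm2 animals at 24 h, against 23.9, 24.0, 79.3, 62.4 and 19.0 CPM in the sham animals. The groups overlapped at these times, with 2 irradiated animals under the lowest sham value at 24 h. Cidec was at 79.9, 25.6, 41.4, 90.5 and 16.2 CPM in the 40 mJ/cm2 animals at 48 h, against 125, 31.1, 13.9, 17.5 and 104 CPM in the sham animals. Cidec was at 98.6, 3.48, 35.5, 83.3 and 199 CPM in the 40 mJ/cm2 animals at 72 h, against 111, 26.6, 36.4, 33.2 and 38.6 CPM in the sham animals. Cidec was at 98.3, 115, 53.7 and 163 CPM in the 40 mJ/cm2 animals at 96 h, against 21.8, 65.8, 14.7, 42.9 and 8.13 CPM in the sham animals. The lowest and the highest Cidec value of the whole study were both in the 72 h group at 40 mJ/cm2, and at 96 h the log2 fold change was 1.86 ± 0.58 (edgeR adjusted p = 0.475). Plin4, another perilipin, had -0.62 ± 0.38 at 24 h and 0.81 ± 0.36 at 96 h, and Cidea, a relative of Cidec that sebaceous glands also express, -0.47 ± 0.38 and 0.40 ± 0.40, none of them called.

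Pparg encodes PPAR-gamma, the nuclear receptor that directs fat cell formation. Pparg was at 32.5, 35.3, 32.6, 32.2 and 32.5 CPM in the 40 mJ/cm2 animals at 0 h, against 38.6, 49.8, 77.8, 41.3 and 39.4 CPM in the sham animals. All 5 irradiated animals were below all 5 sham animals at 0 h, as for 0.932% of all genes tested, with a log2 fold change of -0.58 ± 0.24 that missed the threshold (edgeR adjusted p = 0.985). Pparg was at 20.8, 24.3, 31.5, 28.1 and 23.1 CPM in the 40 mJ/cm2 animals at 6 h, against 26.8, 33.8, 20.4, 26.4 and 36.8 CPM in the sham animals. Pparg was at 22.8, 24.6, 21.1, 19.5 and 25.5 CPM in the 40 mJ/cm2 animals at 24 h, against 17.3, 22.1, 39.4, 30.3 and 21.0 CPM in the sham animals. Pparg was at 26.9, 23.4, 21.4, 26.9 and 20.2 CPM in the 40 mJ/cm2 animals at 48 h, against 28.3, 18.8, 20.3, 20.8 and 35.6 CPM in the sham animals. From 6 h on the irradiated values stayed between 19.5 and 39.1 CPM, against 13.4 to 39.4 CPM in the sham animals, and overlapped with them at each time. Pparg was at 27.8, 26.0, 34.0, 25.3 and 39.1 CPM in the 40 mJ/cm2 animals at 72 h, against 31.0, 21.4, 32.2, 17.7 and 21.4 CPM in the sham animals. Pparg was at 31.6, 37.8, 27.0 and 32.1 CPM in the 40 mJ/cm2 animals at 96 h, against 13.4, 35.7, 17.5, 24.2 and 14.8 CPM in the sham animals. Its log2 fold change at 96 h was 0.61 ± 0.28 (edgeR adjusted p = 1).

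Cebpa, the C/EBP factor that works with PPAR-gamma, varied least among the regulators. Cebpa was at 145, 134, 127, 81.0 and 132 CPM in the 40 mJ/cm2 animals at 0 h, against 188, 184, 88.9, 105 and 164 CPM in the sham animals. Cebpa was at 124, 140, 135, 123 and 114 CPM in the 40 mJ/cm2 animals at 6 h, against 131, 147.9, 95.2, 82.7 and 161 CPM in the sham animals. Cebpa was at 117, 101, 66.8, 70.5 and 133 CPM in the 40 mJ/cm2 animals at 24 h, against 98.6, 123, 85.8, 111 and 145 CPM in the sham animals. No group was set apart at these times. Cebpa was at 121, 102, 99.5, 130 and 98.6 CPM in the 40 mJ/cm2 animals at 48 h, against 128, 117, 89.3, 113 and 130 CPM in the sham animals. Cebpa was at 138, 98.9, 108, 120 and 160 CPM in the 40 mJ/cm2 animals at 72 h, against 159, 113, 100, 116 and 125 CPM in the sham animals. Cebpa was at 171, 136, 122 and 148.3 CPM in the 40 mJ/cm2 animals at 96 h, against 88.9, 120, 95.9, 99.7 and 81.8 CPM in the sham animals. At 96 h all 4 irradiated animals were above all 5 sham animals, by 0.58 ± 0.23 on the log2 scale (edgeR adjusted p = 0.857). Mlxipl, the gene of the carbohydrate-responsive factor ChREBP, had -0.37 ± 0.31 at 24 h and 0.16 ± 0.37 at 96 h.

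Among the genes of fatty acid uptake, Fabp4 encodes the abundant carrier protein of the adipocyte cytosol. Fabp4 was at 679, 621, 750, 959 and 568 CPM in the 40 mJ/cm2 animals at 0 h, against 383, 906, 1215, 756 and 763 CPM in the sham animals. Fabp4 was at 379, 520, 924, 405 and 311 CPM in the 40 mJ/cm2 animals at 6 h, against 813, 852, 423, 682 and 1136 CPM in the sham animals. Fabp4 was at 347, 424, 216, 372 and 307 CPM in the 40 mJ/cm2 animals at 24 h, against 369, 576, 998, 728 and 306 CPM in the sham animals. At 24 h the 5 irradiated animals spanned 216 to 424 CPM and 3 of the 5 sham animals were higher than all of them. Fabp4 was at 385, 305, 346, 572 and 234 CPM in the 40 mJ/cm2 animals at 48 h, against 656, 338, 272, 273 and 641 CPM in the sham animals. Fabp4 was at 883, 213, 740, 613 and 1066 CPM in the 40 mJ/cm2 animals at 72 h, against 861, 468, 1112, 306 and 384 CPM in the sham animals. Fabp4 was at 731, 839, 600 and 1026 CPM in the 40 mJ/cm2 animals at 96 h, against 275, 569, 281, 361 and 177 CPM in the sham animals. At 96 h the lowest irradiated animal was above the highest sham animal, and the log2 fold change of 1.28 ± 0.37 was not called (edgeR adjusted p = 0.371). Acsl1, which activates fatty acids with coenzyme A, was at 156, 160, 132, 174 and 147 CPM after 40 mJ/cm2 at 24 h, against 211, 234, 355, 289 and 187 CPM in sham, without overlap (-0.73 ± 0.21, adjusted p = 0.0671 by edgeR, called by DESeq2). Lpl, the lipase that frees fatty acids from lipoproteins, had -0.59 ± 0.37 at 24 h and 0.51 ± 0.39 at 96 h, and Cd36 had -0.42 ± 0.40 and 0.30 ± 0.42.

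Of the lipolysis genes, Aqp7 encodes the channel through which glycerol leaves the fat cell. Aqp7 was at 2.43, 3.76, 2.21, 4.44 and 3.78 CPM in the 40 mJ/cm2 animals at 24 h, against 5.14, 8.52, 8.01, 6.11 and 5.56 CPM in the sham animals. Aqp7 was at 9.29, 9.61, 9.00 and 11.8 CPM in the 40 mJ/cm2 animals at 96 h, against 4.59, 5.84, 5.35, 7.92 and 2.60 CPM in the sham animals. The irradiated animals lay below all sham animals at 24 h and above all of them at 96 h. The log2 fold changes were -1.04 ± 0.33 (edgeR adjusted p = 0.0914, called by DESeq2) and 0.88 ± 0.33 (adjusted p = 0.777). The triglyceride lipase gene Pnpla2 had -0.47 ± 0.45 at 24 h and 0.83 ± 0.46 at 96 h, the hormone-sensitive lipase gene Lipe -0.25 ± 0.64 and 1.65 ± 0.50, and Adrb3, which starts lipolysis on catecholamine signals, -0.73 ± 0.54 and 0.58 ± 0.47, none called.

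In triglyceride assembly, Pck1, which makes the glycerol backbone from small precursors, had the largest fold change of the 33 genes at 24 h and at 96 h. Pck1 was at 11.0, 13.2, 2.21, 5.61 and 17.1 CPM in the 40 mJ/cm2 animals at 24 h, against 16.7, 16.6, 79.7, 41.8 and 8.53 CPM in the sham animals. Pck1 was at 87.2, 93.9, 51.1 and 118 CPM in the 40 mJ/cm2 animals at 96 h, against 13.6, 46.4, 14.5, 33.7 and 3.43 CPM in the sham animals. At 24 h the groups overlapped, and at 96 h every irradiated animal was above every sham animal. The log2 fold changes were -1.80 ± 0.72 and 2.02 ± 0.57 (edgeR adjusted p = 0.191 and 0.322). Lpin1, a phosphatidate phosphatase, lay below all sham animals at 24 h, at 73.7, 72.8, 48.4, 73.7 and 77.6 CPM against 94.6, 96.0, 120, 103 and 85.8 CPM in sham (-0.52 ± 0.17, adjusted p = 0.109). Dgat1 and Dgat2, which complete the triglyceride, had 0.76 ± 0.30 and 1.15 ± 0.44 at 96 h, the acyltransferase gene Agpat2 1.03 ± 0.40, and Gpd1, which makes glycerol phosphate, 0.47 ± 0.44.

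Fatty acid synthesis turns acetyl units into long-chain fatty acids, and its 6 genes were compared in the same way. At 96 h after 40 mJ/cm2 the log2 fold change was 0.45 ± 0.25 for Acaca and 0.10 ± 0.40 for Acacb, the acetyl-CoA carboxylases, 0.80 ± 0.44 for the fatty acid synthase gene Fasn, 0.33 ± 0.17 for the ATP citrate lyase gene Acly, 0.42 ± 0.28 for Me1, the malic enzyme that supplies NADPH, and 1.62 ± 0.51 for Thrsp, a lipogenic gene induced by thyroid hormone and carbohydrate. Thrsp was at 43.6, 72.6, 52.0 and 79.9 CPM in the irradiated animals at 96 h, against 13.8, 34.9, 23.9, 16.2 and 6.96 CPM in sham, without overlap (edgeR adjusted p = 0.475). None of the 6 was called at any dose or time.

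Car3 was the 1 gene called after 40 mJ/cm2, at 48 h. Car3 was at 2931, 2906, 3397, 3543 and 3091 CPM in the 40 mJ/cm2 animals at 0 h, against 2271, 2279, 4542, 2457 and 2884 CPM in the sham animals. Car3 was at 2664, 2835, 4153, 2864 and 2086 CPM in the 40 mJ/cm2 animals at 6 h, against 3729, 2442, 2935, 3976 and 3522 CPM in the sham animals. The groups overlapped at both of these times. Car3 was at 1765, 2353, 1766, 3662 and 1597 CPM in the 40 mJ/cm2 animals at 24 h, against 2612, 3559, 5253, 4554 and 2173 CPM in the sham animals. Car3 was at 1937, 1135, 1192, 1473 and 1126 CPM in the 40 mJ/cm2 animals at 48 h, against 3621, 2283, 2400, 2546 and 3620 CPM in the sham animals. Car3 was at 1303, 735, 4072, 1164 and 3527 CPM in the 40 mJ/cm2 animals at 72 h, against 3666, 2798, 4363, 2745 and 2680 CPM in the sham animals. At 48 h all 5 irradiated animals were below all 5 sham animals, which 6.11% of all genes tested also showed, and at 24 and 72 h the groups overlapped. Car3 was at 2242, 4408, 2953 and 2463 CPM in the 40 mJ/cm2 animals at 96 h, against 3170, 2919, 2402, 2904 and 1586 CPM in the sham animals. At 96 h they overlapped too, and the highest value was that of an irradiated animal. The log2 fold change was -0.72 ± 0.30 at 24 h, -1.09 ± 0.22 at 48 h, -0.66 ± 0.42 at 72 h and 0.15 ± 0.31 at 96 h (edgeR adjusted p = 0.212, 0.0029, 0.662 and 1). Without any 1 library the 48 h value ran from -1.22 to -0.97 with an adjusted p of 0.00202 to 0.014. It missed the threshold among libraries with titles ending in R1_001, the smaller part of both groups (-0.95, edgeR adjusted p = 0.572). It also missed it with the muscle level in the fit, with the limit stated above (-0.70, edgeR adjusted p = 0.0572). Slow skeletal muscle fibres also express Car3, and the mean log2 CPM of the 21 muscle genes was 9.95 ± 0.28 (SD, n = 5) after 40 mJ/cm2 at 48 h, against 11.05 ± 0.32 in sham (SD, n = 5), with 14 of the 21 called lower. Slc2a4, the gene of the glucose transporter GLUT4 of fat and muscle, was at 94.6, 51.2, 68.5, 77.3 and 55.7 CPM after 40 mJ/cm2 at 48 h and 169, 96.0, 91.7, 134 and 149 CPM in sham (-0.89 ± 0.29, edgeR adjusted p = 0.0637, called by DESeq2). Its log2 fold change turned to 0.40 with the muscle level in the fit. Between animals of one group the level of Slc2a4 went with the muscle list (Pearson r = 0.88 over 145 libraries). For Car3 the same correlation was 0.01, against 0.60 with Adipoq. With the library's slope on base composition, described below, Car3 had -0.53 and Slc2a4 0.83, while the muscle level had 0.76. The correlation with muscle at a fixed slope was not taken, and the part of muscle in the Car3 values was not tested.

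The 96 h comparison was then read over all 33 genes. All 40 mJ/cm2 animals were above all sham animals for 9 of the 33 (Acly, Agpat2, Aqp7, Cebpa, Cidea, Dgat1, Fabp4, Pck1 and Thrsp), against 1.86% of all genes tested. An unadjusted p under 0.05 was reached by 18 of the 33 (54.5%), against 4.74% of all genes, and edgeR and DESeq2 called none of the 18. The 20 adipocyte markers outside the list had a median log2 fold change of 1.00 with 0 called, and their mean log2 CPM was 4.13 ± 0.36 (SD, n = 4) after 40 mJ/cm2 and 3.10 ± 0.55 in sham (SD, n = 5). Markers of other tissues were read in the same animals: keratinocyte genes averaged (mean ± SD) 9.22 ± 0.81 and 7.94 ± 0.41 log2 CPM in 40 mJ/cm2 and sham skin, and genes of the growing hair follicle 0.16 ± 0.86 and 1.75 ± 1.79, with individual animals from -0.52 to 1.42 and from -0.13 to 4.26. The sebaceous list stood at 6.22 ± 0.09 and 5.86 ± 0.21, without overlap, and the muscle list at 10.62 ± 0.45 and 10.66 ± 0.44. The part of these tissues in the 96 h values was not tested.

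**Figure D2:**
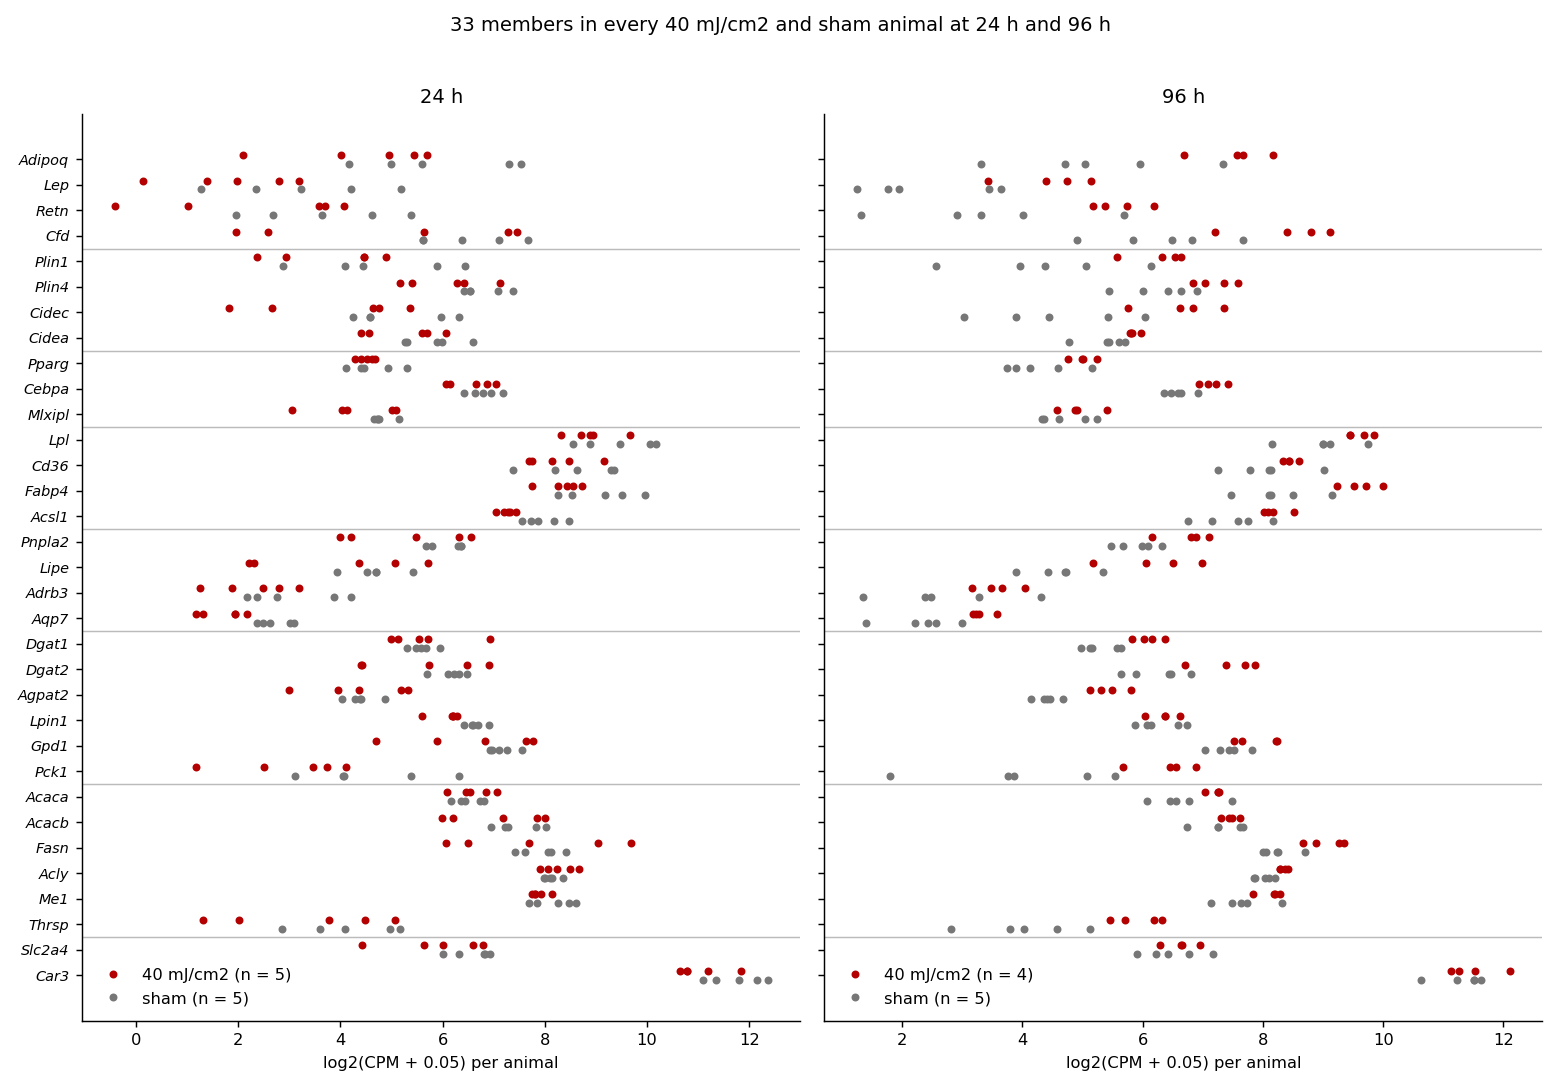
Level of the 33 genes in every 40 mJ/cm2 animal (red, upper point of each pair) and every sham animal (grey, lower point) at 24 h and 96 h, on a log2 CPM scale, with lines between roles. At 24 h Acsl1, Aqp7 and Lpin1 show no overlap, with the irradiated animals lower, and at 96 h the irradiated animals of 9 genes lie wholly to the right of sham.

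Whether the 40 mJ/cm2 effect moved with time was tested as an interaction. Between 24 h and 6 h, 48 h and 6 h, 72 h and 6 h, and 96 h and 48 h, edgeR called 0.0268%, 1.23%, 0.348% and 0.112% of all genes and 0 of the 33, with 0, 3, 2 and 11 at an unadjusted p under 0.05 (DESeq2 was not run on these). Those are 0%, 9.09%, 6.06% and 33.3% of the 33, against 7.05%, 12.8%, 8.45% and 10.2% of all genes. The effect at 96 h minus that at 48 h was above 0 for 33 of 33 genes, with a median of 1.01, and reached 2.77 ± 0.94 for Pck1 (edgeR adjusted p = 0.258) and 1.51 ± 0.51 for Fabp4 (adjusted p = 0.253). At 24 h the irradiated animals were below all sham animals for 3 of the 33 genes (Acsl1, Aqp7 and Lpin1), against 2.25% of all genes tested. In the same animals the muscle list averaged 10.16 ± 0.55 log2 CPM (SD, n = 5) after 40 mJ/cm2 and 10.88 ± 0.24 in sham (SD, n = 5). The keratinocyte list stood at 8.15 ± 0.29 and 8.26 ± 0.19, and the outside adipocyte markers 2.69 ± 0.61 and 3.34 ± 0.50. Replicate 3 after 40 mJ/cm2 was lowest of its group in the mean over the 33 genes (4.53) and in the muscle list (9.24) alike. With the muscle level in the fit, the log2 fold change at 24 h was -0.88 for Acsl1, -0.95 for Aqp7 and -0.21 for Lpin1. In that fit edgeR called 3 of the 33 lower, Lpl, Acsl1 and Car3, against 15.2% of all genes.

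Among the lower doses, the most genes with an unadjusted p under 0.05 were found after 10 mJ/cm2 at 6 h. Adipoq was at 11.7, 28.3, 23.6, 45.6 and 16.3 CPM there, below the sham values of 6 h given above, and Pck1 was at 9.23, 25.5, 17.8, 30.1 and 21.8 CPM, against 60.3, 62.1, 37.4, 36.9 and 157 CPM in the sham animals, without overlap. The log2 fold change was -2.16 ± 0.59 for Adipoq, -1.98 ± 0.54 for Plin1, -2.28 ± 0.67 for Retn and -1.78 ± 0.58 for Pck1. No gene was called by edgeR, 14 of the 33 (42.4%) had an unadjusted p under 0.05 against 8.42% of all genes, and DESeq2 called Adipoq, 1 of the 33, against 0.166% of all genes. Adipoq, Cd36 and Pck1 were below and Cidea above all sham animals, 4 of the 33, against 2.71% of all genes that did not overlap in either direction. With no filter on low counts edgeR called 6 of the 33 (Adipoq, Plin1, Cidec, Lep, Retn and Pck1), against 0.109% of all genes. This group holds the shallowest library, the fifth value of each gene above, where levels of this size rest on a few counts. The median log2 fold change of the 33 genes was -0.51 with and -0.58 without libraries that shallow. After 5 mJ/cm2 at 96 h, 13 of the 33 (39.4%) had an unadjusted p under 0.05, against 9.53% of all genes. Of the 33 values, 29 were above 0 there. At 6 h after 5 mJ/cm2 it was 9 of the 33 (27.3%), against 1.91% of all genes, and 31 values were below 0.

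More of the genes were called between times than between doses. In sham skin, Acaca and Acly were lower at all 5 later times than at 0 h, Pparg at 24, 48, 72 and 96 h, Me1 at 48 and 96 h, and Dgat1 and Acsl1 at 96 h, and no gene was called higher. That gives 2, 3, 4, 3 and 6 of the 33 genes at 6, 24, 48, 72 and 96 h, against 2.83%, 4.63%, 6.34%, 3.94% and 5.12% of all genes tested. The median log2 fold change of the 33 genes was -0.29, -0.62, -0.46, -0.57 and -0.94 at the 5 times, and that of all genes was -0.02 to 0.02.

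Acaca encodes the acetyl-CoA carboxylase that commits carbon to fatty acid synthesis. Acaca was at 399, 263, 187, 211 and 219 CPM in the sham animals at 0 h, 194, 130, 80.6, 64.9 and 130 CPM at 6 h, 71.4, 86.3, 106, 112 and 82.2 CPM at 24 h, 116, 119, 86.1, 90.5 and 166 CPM at 48 h, 142, 65.5, 93.2, 82.8 and 101 CPM at 72 h and 67.1, 178, 109, 87.9 and 94.0 CPM at 96 h. Only 1 of the later sham animals, replicate 1 of 6 h, reached the range of 0 h (187 to 399 CPM). Its log2 fold change was -1.13 ± 0.28, -1.50 ± 0.28, -1.11 ± 0.28, -1.38 ± 0.28 and -1.21 ± 0.28 at the 5 times (edgeR adjusted p = 0.0232, 0.00188, 0.0195, 0.00555 and 0.00973). Acly supplies the acetyl-CoA that Acaca uses. Acly was at 786, 521, 376, 357 and 454 CPM in the sham animals at 0 h, 334, 268, 250, 180 and 236 CPM at 6 h, 254, 258, 282, 274 and 329 CPM at 24 h, 321, 282, 295, 299 and 361 CPM at 48 h, 340, 253, 212, 312 and 310 CPM at 72 h and 232, 295, 274, 263 and 232 CPM at 96 h. Its range of 357 to 786 CPM at 0 h was reached later by 1 sham animal, of 48 h, and the log2 fold changes were -1.01 ± 0.19, -0.86 ± 0.19, -0.66 ± 0.19, -0.81 ± 0.19 and -0.91 ± 0.19 (edgeR adjusted p = 0.00239, 0.00595, 0.035, 0.0125 and 0.00362).

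Pparg, whose sham values are given above, had log2 fold changes against 0 h of -0.95 ± 0.27, -0.98 ± 0.28, -0.99 ± 0.27 and -1.21 ± 0.28 at 24, 48, 72 and 96 h (edgeR adjusted p = 0.0397, 0.0337, 0.0381 and 0.00905). Me1 was at 179, 319, 213, 199 and 141 CPM in sham skin at 96 h, against 565, 483, 560, 324 and 339 CPM at 0 h (-1.06 ± 0.20, edgeR adjusted p = 0.00206). Dgat1 was at 31.3, 49.7, 34.8, 47.8 and 35.7 CPM at 96 h, against 92.7, 92.9, 48.0, 53.7 and 97.1 CPM at 0 h (-0.95 ± 0.22, adjusted p = 0.0108 by edgeR), and Acsl1 at 216, 287, 142, 191 and 108 CPM, against 306, 345, 432, 279 and 280 CPM (-0.76 ± 0.20, adjusted p = 0.0215). The groups of Me1 did not overlap, and those of Dgat1 and Acsl1 overlapped through 1 sham animal of 96 h. Of these 18 calls, 9 held in every fit without 1 library: those of Acly at 6, 24 and 96 h, Acaca at 24, 72 and 96 h, and Pparg, Me1 and Dgat1 at 96 h. The count of 4 at 48 h became 0 without sham 48 h replicate 1 or 4, 1 without replicate 2 or 3, 2 without sham 0 h replicate 2 or 3, and 7 without sham 0 h replicate 1 or 5. The count at 6 h was 1 without sham 0 h replicate 1 or sham 6 h replicate 3 or 4, that at 24 h was 5 without sham 24 h replicate 4, and that at 72 h was 1 without sham 72 h replicate 2 and 6 without replicate 3.

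The irradiated animals, none of which is among the sham animals, were also compared over time, each time against 0 h averaged over the 4 doses. This comparison was added after the data were seen. In these animals the effect of light and that of time cannot be told apart. With 16 to 20 animals a time, 22, 25, 19, 18 and 24 of the 33 genes fell at 6, 24, 48, 72 and 96 h. A single gene rose, Slc2a4 at 48 h. The background was high as well: edgeR called 24.0%, 23.6%, 53.5%, 29.6% and 17.2% of all genes tested, in either direction. The 14 genes that fell at all 5 times were Acaca, Acly, Acsl1, Adipoq, Cd36, Dgat1, Fabp4, Lep, Lpl, Me1, Pck1, Pparg, Retn and Thrsp, and all genes called lower in sham skin at a time were also called lower in irradiated skin at that time. The 8 that fell at no time were Acacb, Cebpa, Cidea, Gpd1, Lipe, Mlxipl, Pnpla2 and Slc2a4. The shares of all genes that fell at all 5 times or at none were not taken. All 5 comparisons use the same animals of 0 h, so calls at different times are not independent.

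Adipoq had a median of 199 CPM in the 20 irradiated animals of 0 h (41.2 to 648), 33.6 CPM at 6 h (11.7 to 166), 36.2 CPM at 24 h (4.19 to 270), 60.6 CPM at 48 h (16.1 to 274), 86.9 CPM at 72 h (4.55 to 294) and 43.1 CPM at 96 h (13.6 to 317). Acaca had a median of 227 CPM in the 20 irradiated animals of 0 h (110 to 814), 69.6 CPM at 6 h (10.9 to 151), 90.2 CPM at 24 h (65.3 to 146), 105 CPM at 48 h (61.2 to 228), 109 CPM at 72 h (65.2 to 189) and 99.8 CPM at 96 h (62.9 to 161). Median levels at every later time were under those of 0 h for both genes, while the ranges overlapped at all times. The 10.9 CPM of Acaca at 6 h is from the shallowest library, 10 mJ/cm2 replicate 5, and rests on a few counts. At 6 h the log2 fold change was -2.07 ± 0.36 for Adipoq, -2.54 ± 0.37 for Retn, -2.66 ± 0.34 for Thrsp and -1.86 ± 0.15 for Acaca (edgeR adjusted p = 3.01e-06, 4.13e-08, 1.64e-09 and 2.53e-17). At 96 h it was -1.63 ± 0.38, -2.16 ± 0.39, -1.75 ± 0.36 and -1.35 ± 0.17 for the same genes (adjusted p = 0.00126, 2.49e-05, 0.00016 and 1.14e-09). Sham skin gave -1.74 ± 0.72, -2.24 ± 0.74, -1.57 ± 0.60 and -1.21 ± 0.28 at 96 h, where edgeR called only Acaca of the 4. Whether the change over time differed between irradiated and sham skin was not tested.

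**Figure D3:**
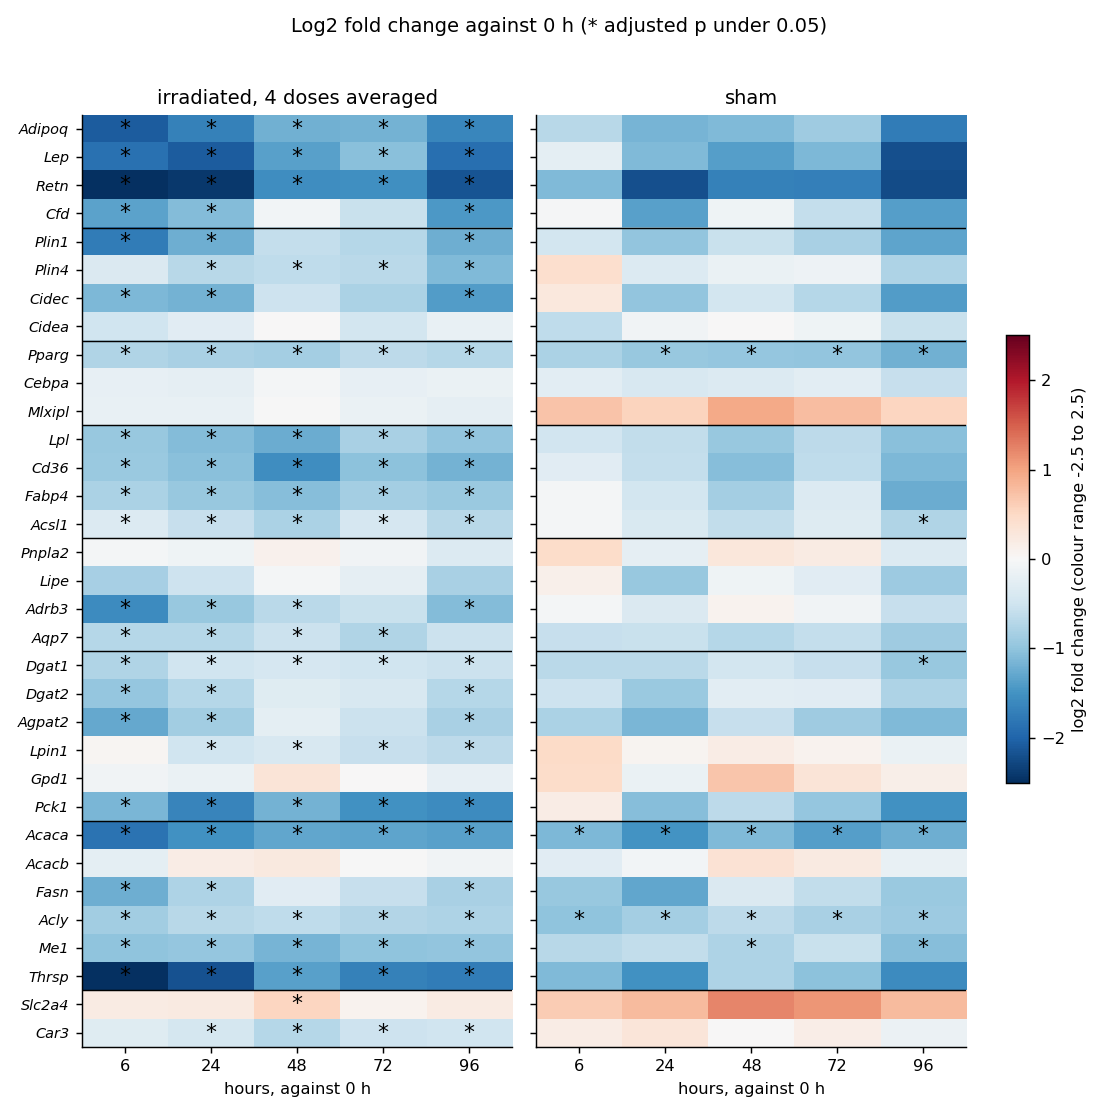
Log2 fold change of the 33 genes (rows, grouped by role) at each later time against 0 h, in irradiated animals averaged over 4 doses (left) and in sham animals (right); asterisks mark an adjusted p under 0.05. Most cells are blue in both panels, Acaca and Acly carry asterisks in all 10 columns, and Slc2a4 and Mlxipl are red in sham skin without passing the test.

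Other tissues and clock genes also differed between 0 h and later times. In sham skin the keratinocyte list was at 7.94 to 8.39 log2 CPM at later times, against 9.33 at 0 h, with 5 to 8 of its 12 genes called lower. The sebaceous list was at 5.86 to 6.25 later, against 6.86 at 0 h, with 5 to 8 of 14 called lower, and the muscle list at 10.61 to 11.05 later, against 9.64 at 0 h, with 6 to 14 of 21 called higher. Of 15 clock genes, 6 to 11 were called in either direction at each time, and the labels used do not state the hour of collection. With the muscle level in the sham fit, 9, 16, 10, 13 and 17 of the 33 genes were called at 6, 24, 48, 72 and 96 h, all lower, against 27.6%, 35.2%, 10.9%, 27.8% and 13.7% of all genes. That fit separates time from muscle level poorly. The muscle list of single sham animals was at 9.14 to 10.18 at 0 h, 10.53 to 11.14 at 24 h and 10.63 to 11.37 at 48 h. The ranges of 24 and 48 h did not meet that of 0 h, while those of 6, 72 and 96 h did. With the slope on base composition described below in the irradiated fit, edgeR called 30, 30, 28, 31 and 30 of the 33 genes, all lower, against 37.3%, 32.1%, 25.0%, 37.1% and 24.3% of all genes. That slope itself averaged -0.36 in irradiated animals at 0 h and -0.05 to 0.36 later, with overlapping ranges. This fit therefore does not fully separate time from the slope. Per the labels, libraries were prepared in random order, while time after exposure and hour of collection cannot be told apart.

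Genes that work beside the 34 were followed as separate lists. At 48 h after 40 mJ/cm2, 3.76% of all genes tested were called lower and 3.97% higher. Then 2 of 23 further genes of fatty acid synthesis fell, Elovl5, a fatty acid elongase (-0.89 ± 0.21), and Insig2, which holds back the sterol regulators (-0.61 ± 0.15), and none was called at another time. Of 19 tested genes of triglyceride assembly and droplets, Gpam fell at 48 h (-0.52 ± 0.16), of 19 of lipolysis and lipoprotein lipase control Vldlr fell (-0.74 ± 0.20), and of the 20 outside adipocyte markers Cd300lg fell (-0.74 ± 0.21). Cdh13, which encodes T-cadherin, a binding partner of adiponectin on vessels and muscle, fell at 24, 48 and 72 h (-1.11 ± 0.12, -0.80 ± 0.14 and -0.80 ± 0.17), while Adipoq itself was not called. Among 22 further transcription factors of adipocytes Cebpd rose at 6 h (1.35 ± 0.33) and Cebpb at 48 h (0.74 ± 0.23), whereas Ppargc1a (-1.08 ± 0.30) and Rxrg (-0.99 ± 0.27), both also muscle genes, fell at 48 h. Dio2, which activates thyroid hormone and is listed with brown fat, rose at 6 h (3.44 ± 0.37) and 24 h (1.63 ± 0.31), with Ucp1 near 0 throughout. In sham skin at 96 h against 0 h, 7 of the 23 further synthesis genes fell, against 3.90% of all genes, led by Elovl6 (-2.06 ± 0.32) and Scd1 (-1.65 ± 0.31), an elongase and a desaturase, both also expressed in sebaceous glands. These values are edgeR log2 fold changes with SE, each past an adjusted p of 0.05 over all genes.

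Animals of one group differed widely in these genes, so the spread itself was described. The SD of log2 CPM within groups had a median of 0.72 over the 33 genes, against 0.62 over 14030 genes whose mean log2 CPM reached 1. Adipoq ran from 4.19 CPM in 40 mJ/cm2 replicate 3 at 24 h to 648 CPM in 10 mJ/cm2 replicate 2 at 0 h, and its SD within groups was 1.19, against 0.29 for Acly, the lowest of the 33. After subtraction of the group means, 7 genes had a Pearson correlation above 0.8 with Adipoq over the 145 libraries: Retn (0.94), Plin1 (0.90), Pck1 (0.88), Adrb3 (0.86), Lep (0.85), Cidec (0.85) and Fabp4 (0.84). Among these 8 genes the median pairwise correlation was 0.83 and the lowest 0.62, and the outside adipocyte markers had 0.85 with Adipoq. At the other end, 8 genes had a correlation below 0.3 with Adipoq, among them Acacb (0.01), Cidea (0.03), Slc2a4 (0.12) and Acly (0.19). These correlations describe the same libraries and share their depth and base composition.

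A second pattern went with base composition. For each library the log2 CPM of a gene was taken relative to its mean over all libraries. The slope of these values on the GC content of the gene was then taken over 14043 genes. It ran from -1.72 to 1.01 log2 units per 10 points of GC, where 0 stands for the average library. The lowest slope was that of 10 mJ/cm2 replicate 2 at 0 h, the animal with the highest Adipoq, Fabp4, Retn, Cd36 and Lpl levels. Its muscle list stood at 7.85 log2 CPM. Between animals of one group, 9 of the 33 genes had a correlation above 0.7 with this slope, among them Agpat2 (0.85), Gpd1 (0.85), Acacb (0.85) and Pnpla2 (0.85), and 4 had one below -0.5: Cd36 (-0.85), Lpl (-0.82), Me1 (-0.57) and Car3 (-0.53). GC content ran from 38.4% in Cd36 to 62.6% in Cebpa, and across the 33 genes, which share these libraries, GC content and the correlation with the slope were themselves correlated at 0.87. The slope of a library also went with its muscle level (r = 0.76) and with its share of mitochondrial counts (r = -0.82), which ran from 1.61% to 34.8%. With the slope removed, 11 genes other than Adipoq had a correlation above 0.8 with it, and Cfd moved to 0.91, against 0.66 before. In the groups most discussed here the slope overlapped, at 0.02 to 0.50 after 40 mJ/cm2 and -0.40 to 0.42 in sham at 96 h, and at -1.09 to 0.78 after 40 mJ/cm2 and -0.64 to 0.57 in sham at 24 h. With the slope in the fit, edgeR called 6 of the 33 genes lower at 24 h after 40 mJ/cm2 (Cidea, Acsl1, Slc2a4, Car3, Aqp7 and Lpin1), 3 lower at 48 h (Slc2a4, Car3 and Gpd1), 1 lower at 72 h (Acacb) and none at 96 h. Of all genes, those fits called 19.9%, 14.7%, 9.02% and 0.150%.

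**Figure D4:**
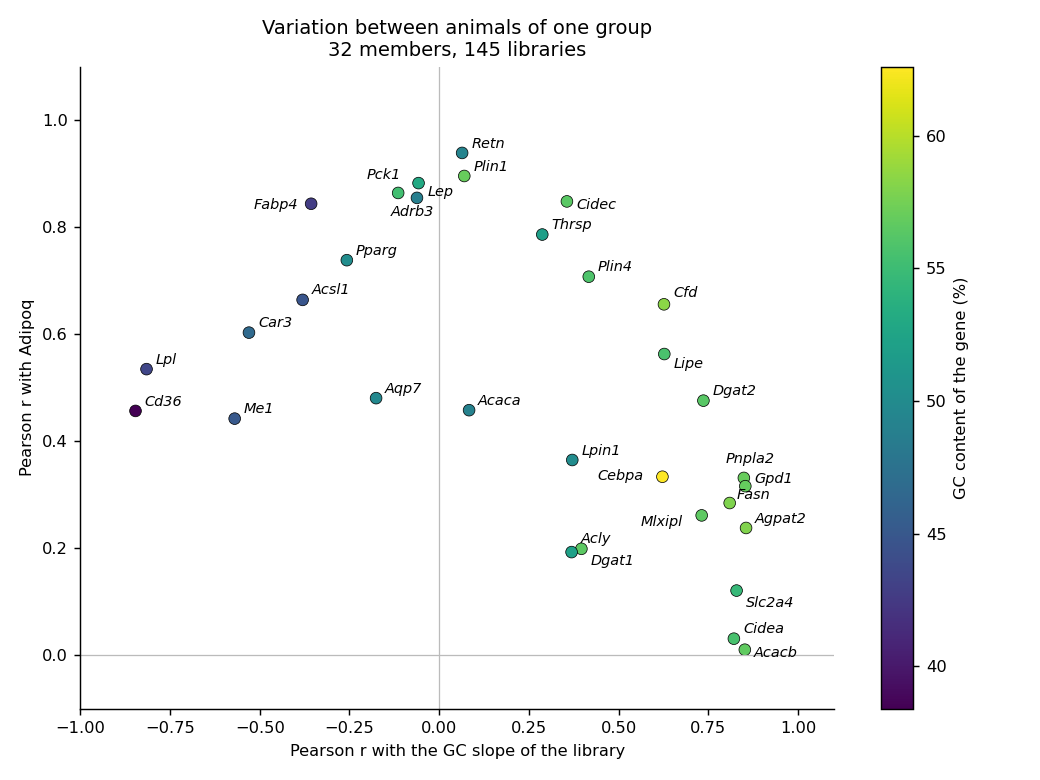
Pearson correlation between animals of one group, over 145 libraries, of 32 genes with Adipoq (vertical axis) and with the library's slope on GC content (horizontal axis), coloured by the GC content of the gene. Retn, Plin1, Pck1, Adrb3, Lep, Cidec and Fabp4 lie above 0.8 on the vertical axis, and GC-rich genes such as Gpd1 and Acacb lie at the right edge.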

How the data were processed

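Polyadenylated RNA of 145 dorsal skin samples was sequenced as stranded libraries from 300 ng of RNA with single reads of 75 bases, as the labels describe. The titles of 5 libraries mark them as repeats, and some of these titles name another amount in ng. Gene-level estimated counts were made by the authors and deposited as a single table, in which 12.6% of values are not whole. Named in the submitters' processing notes, without role or order, are build GRCm39, STAR 2.7.10a, fastp 0.23.0, bcl2fastq 2.20.422 and DESeq2 1.36.1. No source used here gives the tool that estimated the counts, its annotation or its strand setting, so reads of antisense or overlapping genes cannot be separated. Rows without a gene symbol hold 0.0906% of counts.

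The estimated counts were rounded to whole numbers, filtered with filterByExpr over the 30 groups, scaled by TMM and fitted per time with edgeR 4.0.16 (limma 3.58.1, R 4.3.3), with the 5 dose groups of that time and the ending of the library title (R1_001 in 71, R1 in 74) as terms. The edgeR quasi-likelihood F test was adjusted by Benjamini-Hochberg within each of 39 comparisons. Groups came from the labelled dose and time. Slopes on log2 dose used the irradiated animals, and the sham animals of each time serve as control for all 4 doses, so those comparisons share animals. Log2 CPM used a prior count of 2. Alternatives were DESeq2 1.42.0, RLE scaling, no filter, no title term, each title ending alone, the muscle level as a covariate, 1 fit of all libraries, leaving out shallow or repeated libraries and leaving out each library. The slope on GC content and the comparison of irradiated animals over time were added after the data were seen. Tables and figures used python 3.11.15, pandas 2.3.3, numpy 2.4.6 and matplotlib 3.10.9, and the fits were tested on simulated data.

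The 34 genes and all lists were chosen with earlier results of these data known. Full values are given for Adipoq, Plin1, Cidec, Fabp4, Lep, Cfd, Pparg, Cebpa and genes called at 40 mJ/cm2, up to 5 called genes elsewhere, and up to 3 called genes per direction of each other list. Values given in every animal for Acsl1, Aqp7, Lpin1, Pck1, Thrsp, Slc2a4 and, in sham skin at 96 h, Dgat1 were chosen after they were seen. Of 150 planned animals, 145 were analysed. Depth of 180004 to 64588924 counts limits genes at a few CPM most.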

Additional observations from a re-analysis of the deposited data

Results flagged for a closer look

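A single value far from the rest was looked for in 162 checks, each of 1 gene or the mean over the 33 genes in 1 group of 4 or 5 animals. These picked out 8, and chance alone picks out about 1 in 20. Checks of different genes in a group share its animals. In the 40 mJ/cm2 animals of 72 h, replicate 2 was lowest for Adipoq at 4.55 CPM, against 95.2 to 294 CPM in the other 4, and for Lep at 0.536 CPM, against 11.9 to 33.0 CPM. Replicate 5 of that group was highest for Acly at 402 CPM, against 296 to 319 CPM. In the 40 mJ/cm2 group of 0 h, replicate 2 was highest for Pparg at 35.3 CPM, against 32.2 to 32.6 CPM, and replicate 4 lowest for Cebpa at 81.0 CPM, against 127 to 145 CPM. Acaca was highest in 40 mJ/cm2 replicate 3 at 6 h, at 131 CPM against 56.4 to 69.1 CPM, and lowest in 40 mJ/cm2 replicate 1 at 96 h, at 132 CPM against 152 to 155 CPM. Among sham animals, Cidec was highest in replicate 1 at 72 h, at 111 CPM against 26.6 to 38.6 CPM.

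Aqp7 is listed because its 40 mJ/cm2 animals lay wholly below sham at 24 h, with a log2 fold change of -1.04, and wholly above sham at 96 h, with 0.88. The difference between these 2 times was not tested.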

How the results depend on the processing

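Over 39 counts of called genes and 583 alternatives, 55 gave a count more than 1.5 times away from the one reported, and over 52 single results and 950 alternatives 884 kept direction and side of the threshold, 50 lost the call, 14 gained one and 2 reversed. The causes were not tested. With the muscle level as a covariate the 48 h values of Slc2a4 and Cidea after 40 mJ/cm2 turned to 0.40 and 0.31. Muscle level itself differed with dose at 48 h and with time in sham skin, so fits with this covariate separate these poorly. Under that covariate the counts were 3 at 40 mJ/cm2 and 24 h, 3 at 20 mJ/cm2 and 48 h, 9 at 40 mJ/cm2 and 48 h (all higher), and 9, 16, 10, 13 and 17 in sham skin over time. With the GC slope they were 6, 3 and 1 at 40 mJ/cm2 at 24, 48 and 72 h, 2 for the 48 h slope, 1 for the 72 h minus 6 h interaction, and 9, 10, 6 and 15 in sham skin at 6, 24, 72 and 96 h. DESeq2 gave 1 at 10 mJ/cm2 and 6 h, 2 at 40 mJ/cm2 at 24 h and at 48 h, 1 for the 48 h slope, and 6, 7 and 10 in sham skin at 24, 48 and 96 h. Without the filter the counts were 6 at 10 mJ/cm2 and 6 h, 2 at 40 mJ/cm2 and 48 h and 1 at 40 mJ/cm2 and 96 h, and among R1_001 libraries alone 0 at 40 mJ/cm2 and 48 h. Irradiated in place of sham animals gave 22, 25, 20, 18 and 24, and 30, 30, 28, 31 and 30 with the GC slope. No share of all genes is given for the sham fits with the GC slope or DESeq2, the 48 h slope or the interaction. The same holds for the muscle fit at 20 mJ/cm2 and the unfiltered fits at 40 mJ/cm2. Those counts show only how the number depends on the processing and are not results about these genes.

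Leaving out 1 library gave 0 to 1 called genes at 20 mJ/cm2 and 48 h (1 without 20 mJ/cm2 replicate 1), 1 to 2 at 40 mJ/cm2 and 48 h (2 without sham replicate 2 or 40 mJ/cm2 replicate 4), and in sham skin 1 to 3 at 6 h, 2 to 5 at 24 h, 0 to 7 at 48 h and 1 to 6 at 72 h. No paired analysis was possible because each animal has its own number and replicate numbers only follow the order of deposit. In that order, the third animal of all 5 groups at 72 h had a GC slope of -1.42 to -0.57 and the fifth one of 0.55 to 0.92 (log2 units per 10 points of GC). At 24 h the third animals were at -0.78 to -0.09 and the fifth at 0.48 to 0.78. What set this order was not tested. With 4 or 5 animals a group and SDs within groups of 0.60 to 1.40 in log2 CPM, changes of the hormone and droplet genes had wide errors, and genes at a few CPM, such as Aqp7 and Lep, are further limited by depth.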
